A study of Mus musculus with 6 samples.

Results

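Calcineurin and NFAT signalling was examined in soleus (Sol) muscle through 8 genes, chosen by name: the calcineurin subunits Ppp3ca, Ppp3cb and Ppp3r1, the calcineurin inhibitor Rcan1, and the transcription factors Nfatc1, Nfatc2, Nfatc3 and Nfatc4. They are 8 of the 24411 genes in the deposited count table. All 8 passed the filter on low counts. Whole Sol was taken after voluntary wheel running (VWR), and poly(A) RNA was sequenced as 1 library for each of 3 WT mice and 3 LSD1-mKO mice. The comparison asks which transcripts differ in the trained slow muscle when LSD1, a histone lysine demethylase, has been deleted in muscle fibers. LSD1-mKO mice were C57BL/6 mice with floxed alleles of Lsd1 (Kdm1a) and 1 copy of a transgene in which the human ACTA1 promoter drives CreERT2, a tamoxifen-dependent recombinase. WT mice carried the floxed alleles without CreERT2. All 6 mice were 8 weeks old at the start, had a running wheel for 38 days and received tamoxifen at 75 mg/kg on 5 consecutive days after 3 days of familiarization. Before tissue was taken, the mice had no access to the wheel and were fasted for 6 hours. No sedentary mice were analysed here, so the response to running itself cannot be read from these values. The ACTA1 promoter acts in differentiating and differentiated muscle cells, so the other cells of the muscle keep LSD1.

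Calcineurin is a phosphatase that is switched on by calcium and calmodulin and consists of a catalytic A subunit (Ppp3ca, Ppp3cb or Ppp3cc) and a regulatory, calcium-binding B subunit (Ppp3r1). It removes phosphates from the cytoplasmic NFAT proteins, which then enter the nucleus and act on target genes. In skeletal muscle this pathway is known for coupling the frequent calcium signals of sustained activity to slow and oxidative fiber genes. Rcan1 encodes a protein that binds and inhibits calcineurin. Its shorter isoform, which starts from an internal promoter of the gene, is itself a known target of NFAT, so its level is often used as a readout of the pathway.

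Rcan1 lies on chromosome 16 of GRCm38 from 92391953 to 92470867, on the minus strand. RefSeq (GRCm38.p6) lists 2 starts for it, 66091 bases apart. The 250 bases before each start are shown because they differ in the core of the NFAT motif, GGAAA, which reads TTTCC on the other strand. Matches are in capitals, and both are written 5′ to 3′ on the strand of the gene.

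Rcan1 distal promoter, chr16:92466170-92466419: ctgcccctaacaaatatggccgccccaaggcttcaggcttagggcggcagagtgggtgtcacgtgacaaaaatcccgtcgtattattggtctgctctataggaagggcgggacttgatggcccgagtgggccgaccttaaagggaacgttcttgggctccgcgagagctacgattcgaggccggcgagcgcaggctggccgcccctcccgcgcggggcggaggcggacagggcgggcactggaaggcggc

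Rcan1 internal promoter, chr16:92400079-92400328: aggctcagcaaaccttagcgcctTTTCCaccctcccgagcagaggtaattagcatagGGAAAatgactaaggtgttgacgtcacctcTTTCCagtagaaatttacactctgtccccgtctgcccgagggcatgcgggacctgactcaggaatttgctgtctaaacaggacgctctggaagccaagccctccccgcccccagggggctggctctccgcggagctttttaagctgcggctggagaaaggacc

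The distal promoter held no match and the internal promoter held 3, of which 1 read GGAAA and 2 read TTTCC. Of the 32851 promoters of the same length in the table, 55.6% held at least 1 match and 6.39% held 3 or more. Promoters of 6 of the 8 genes are reported here, 9 in all, and 6 of the 9 held at least 1 match. Those of Ppp3cb and Nfatc4 held 3 matches each, as did 1 of the 2 listed for Nfatc2, and the single promoter of Ppp3r1 held none. A match describes the letters in the window and does not show binding. The counts are summed over all transcripts of a gene, so RNA from the 2 Rcan1 starts cannot be told apart in these data.

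The libraries held from 8940206 to 10989846 estimated counts in WT and from 10984664 to 13798059 in LSD1-mKO. Kdm1a, the deleted gene, was at 40.5, 38.2 and 33.6 counts per 1000000 (CPM, scaled with edgeR's TMM factors) in WT and at 14.6, 16.6 and 16.6 in LSD1-mKO. The fiber genes Acta1, Ckm and Des summed to 45930 to 58120 CPM over the 6 mice. WT replicate 1 differed from the other WT mice. Its 4 fibroblast markers (Col1a1, Col1a2, Pdgfra and Dcn) summed to 1026 CPM, against 2251 and 3016 in the other WT mice. The LSD1-mKO mice were at 1970, 1094 and 1089, of which the last 2 lay near WT replicate 1 in sum only. In these 2, Col1a1 (146 and 167 CPM against 221) and Col1a2 were below WT replicate 1. Pdgfra and Dcn (644 and 582 CPM against 396) were above it. Values of Ppp3cb, Rcan1, Nfatc3 and Rcan2 are also given without this mouse. In whole muscle, fewer cells of a type and less RNA per cell cannot be told apart.

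Divided by transcript length, the 8 genes covered a wide range of levels. Rcan1 had the highest mean over the 6 mice, 248 transcripts per 1000000 (TPM), followed by Ppp3r1 at 114, Ppp3ca at 93.5 and Ppp3cb at 88.0. The NFAT genes were lower, with Nfatc1 at 18.9, Nfatc3 at 15.8, Nfatc2 at 11.9 and Nfatc4 at 4.45 TPM. Each neighbour in this order was compared with the next within each mouse by an exact sign-flip permutation test (2-sided, adjusted over the 7 pairs). In 5 of the 7 pairs the gene with the higher mean was higher in 6 of 6 mice, with a permutation p of 0.0312 and an adjusted permutation p of 0.0437. The former is the smallest that 6 mice allow, so it only restates the 6 of 6. Ppp3ca and Ppp3cb did not differ beyond their spread: Ppp3ca was the higher in 4 of 6 mice, by 0.09 ± 0.14 on the log2 scale (SD; exact permutation test, adjusted p = 0.188). Nfatc1 was above Nfatc3 in 5 of 6 mice, by 0.27 ± 0.24 (SD; exact permutation test, adjusted p = 0.0729). With the summed exons of a gene as its length the order of the means did not move, but Nfatc3 was above Nfatc2 in only 2 of 6 mice and Rcan1 above Ppp3r1 in 5 of 6. Ppp3ca then stood above Ppp3cb, and Nfatc1 above Nfatc3, in 6 of 6.

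**Figure D1:**
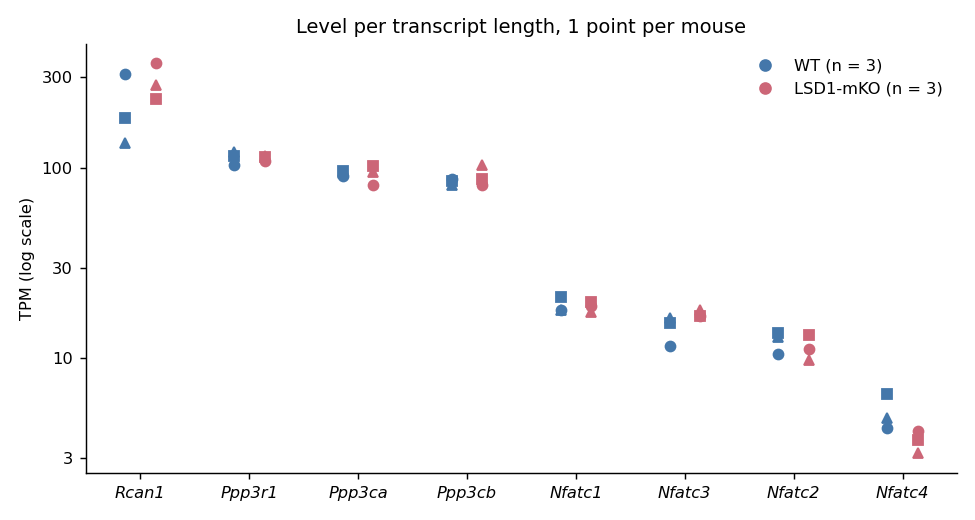
Level of each gene in TPM on a log axis, 1 point per mouse, with circles, squares and triangles for replicates 1, 2 and 3, WT in blue and LSD1-mKO in red. The 3 calcineurin subunits lay between 81.4 and 121 TPM and the 4 NFAT genes between 3.17 and 21.1, while Rcan1 ran from 136 to 355 and spread the most.

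No gene of the 8 passed an adjusted p of 0.05 between LSD1-mKO and WT (edgeR, quasi-likelihood test, Benjamini-Hochberg adjustment over 12828 genes). Among all genes tested 0.0156% passed, 0.0078% in each direction. These were 2 genes, and the lower one was the deleted gene, Kdm1a (edgeR, log2 fold change -1.23, adjusted p = 0.016). With DESeq2, 42 genes passed at the same threshold, none of them among the 8. At an unadjusted p under 0.05 there were 2 of the 8, Nfatc3 and Nfatc4, beside 6.4% of all genes tested, 3.52% with a higher and 2.88% with a lower level in LSD1-mKO. By DESeq2 there were 0 at that limit, beside 4.5% of all genes, and by limma voom 2, beside 6.31%. The same 2 genes were those whose values did not overlap between genotypes, which held for 12.7% of all genes tested. Of the 8 fitted differences, 4 were above 0 and 4 below, with a median log2 fold change of 0.00 against -0.02 over all genes tested. Leaving out WT replicate 1 raised the number without overlap to 4, beside 33.6% of all genes, by adding Ppp3cb and Rcan1. Leaving out LSD1-mKO replicate 2 added Nfatc2 to make 3, beside 21.5% of all genes. Leaving out WT replicate 2, WT replicate 3, LSD1-mKO replicate 1 or LSD1-mKO replicate 3 kept the same 2 genes, beside 21.4%, 19.7%, 24.6% and 18.1% of all genes. Groups that are apart stay apart when a mouse is left out. The number could therefore only hold or rise, which does not test the 2 genes.

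**Figure D2:**
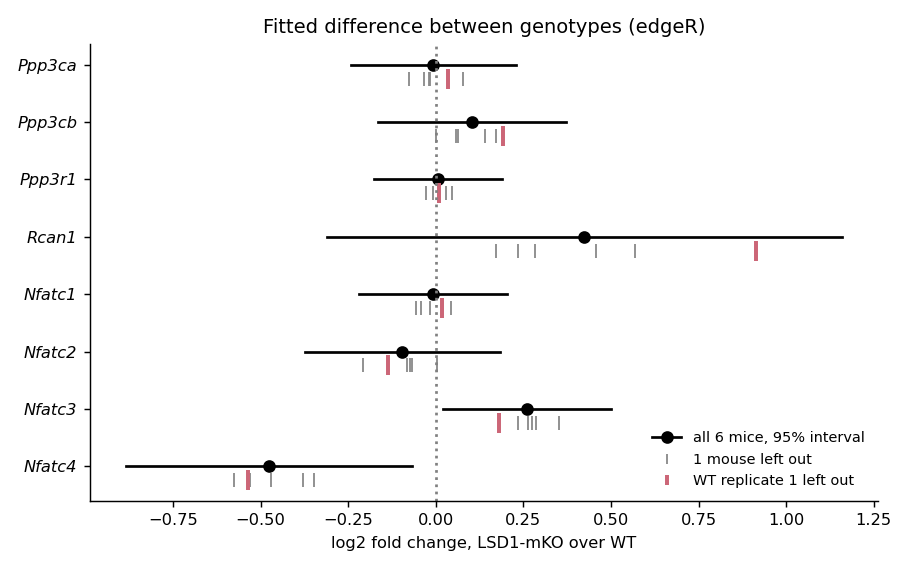
Log2 fold change of LSD1-mKO over WT for each gene (black points) with its 95% interval (black lines) from edgeR, and the values with 1 mouse left out (ticks, red for WT replicate 1). The intervals of 6 genes held 0, those of Nfatc3 and Nfatc4 did not, and Rcan1 moved from 0.42 to 0.92 without WT replicate 1.

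The catalytic and regulatory subunits of calcineurin had SDs between mice of one genotype below the median of all genes tested, and none of them differed past the threshold by edgeR. Ppp3ca (chromosome 3, 136670124 to 136937727), which encodes the alpha form of the catalytic subunit, was at 213, 193 and 198.5 CPM in WT and at 177, 221 and 204 in LSD1-mKO. LSD1-mKO replicates 1 and 2 were its lowest and highest mice, and the groups overlapped. The log2 fold change was -0.01 with a 95% interval from -0.24 to 0.23 (edgeR, adjusted p = 0.991), so a difference beyond 1.17-fold upward or to below 0.845 of WT lay outside the interval.

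Ppp3cb (chromosome 14, 20499364 to 20546573), the beta form, was at 165, 138 and 139 CPM in WT and at 143, 151 and 180 in LSD1-mKO. The groups overlapped through WT replicate 1, which was the second highest of the 6. Its log2 fold change was 0.10 with an interval from -0.17 to 0.37 (edgeR, adjusted p = 0.890). It was 0.19 without WT replicate 1 (edgeR, adjusted p = 0.472) and 0.00015 without LSD1-mKO replicate 3 (edgeR, unadjusted p = 0.999).

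Ppp3r1 (chromosome 11, 17159263 to 17200375), the B subunit that both catalytic forms need, was at 146, 139 and 154 CPM in WT and at 142, 148 and 150.2 in LSD1-mKO. It was the steadiest of the 8 genes. Its SD between mice of one genotype was 0.059 on the log2 scale, at percentile 4.58 of all genes tested. Fitted over all 6 mice, its log2 fold change was 0.01 with an interval from -0.18 to 0.19 (edgeR, adjusted p = 0.989).

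The remaining subunit genes were the catalytic gamma form Ppp3cc and the B subunit form Ppp3r2, which is known from testis. Ppp3cc was at 31.6 to 37.3 CPM in WT and 33.4 to 36.7 in LSD1-mKO, with a log2 fold change of 0.04 (edgeR, adjusted p = 0.945). Ppp3r2 had 1 estimated count in WT replicate 3 and 0 in the other 5 libraries, where a count of 0 allows up to 0.217 to 0.362 CPM (3 counts, for counting error only). Summed over Ppp3ca, Ppp3cb and Ppp3cc, the catalytic subunits stood at 217 ± 3.64 TPM in the WT and 223 ± 19.7 in the LSD1-mKO mice (SD, n = 3). Ppp3ca made up 43.3% ± 1.21 of this sum in WT and 41.7% ± 3.03 in LSD1-mKO (SD, n = 3), and the groups overlapped (exact permutation test, 2-sided, p = 0.4, adjusted p = 0.72 over 9 values of this kind). The ratio of Ppp3r1 to the catalytic sum was 0.524 ± 0.0447 in WT and 0.510 ± 0.0292 in LSD1-mKO (exact permutation test, n = 3 each, p = 0.7).

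Rcan1 varied more between mice than the other 7 genes did. It was at 355, 180.1 and 140 CPM in WT and at 376, 241 and 287 in LSD1-mKO. WT replicate 1 stood beside the highest LSD1-mKO mouse, and the other WT mice lay below all 3 LSD1-mKO mice. The highest WT value was 2.54 times the lowest, and the highest LSD1-mKO value 1.56 times the lowest. The SD within a genotype was 0.54 on the log2 scale, at percentile 95.2 of all genes tested, whose median was 0.17. Means were 225 ± 114 CPM for WT and 301 ± 68.4 for LSD1-mKO (SD, n = 3). The log2 fold change was 0.42 with an interval from -0.31 to 1.16 (edgeR, adjusted p = 0.827; exact permutation test of the CPM, 2-sided, p = 0.4, where 0.1 is the smallest that 3 mice against 3 allow). The difference between the means was smaller than the SD of the WT mice.

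Without WT replicate 1 the log2 fold change of Rcan1 was 0.92 with a standard error of 0.19, and its unadjusted p was 0.00167 (edgeR, adjusted p = 0.164). In that fit 14.4% of all genes had an unadjusted p under 0.05, against 6.4% with all mice. Leaving out any other mouse gave values from 0.17 to 0.57. Rcan1 belongs to a cluster of genes that the study obtained by clustering the libraries used here and singled out for a higher level in LSD1-mKO, so its direction is not independent evidence. Per unit of catalytic subunit RNA, Rcan1 stood at 1.43, 0.837 and 0.637 in WT and at 1.76, 1.01 and 1.14 in LSD1-mKO (ratio of TPM). The catalytic sum itself ran from 201.5 to 240.1 TPM over the 6 mice, and the groups of this ratio overlapped (exact permutation test, p = 0.4, adjusted p = 0.72, n = 3 each). The difference of the ratio was 0.334, and 0.566 without WT replicate 1.

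**Figure D3:**
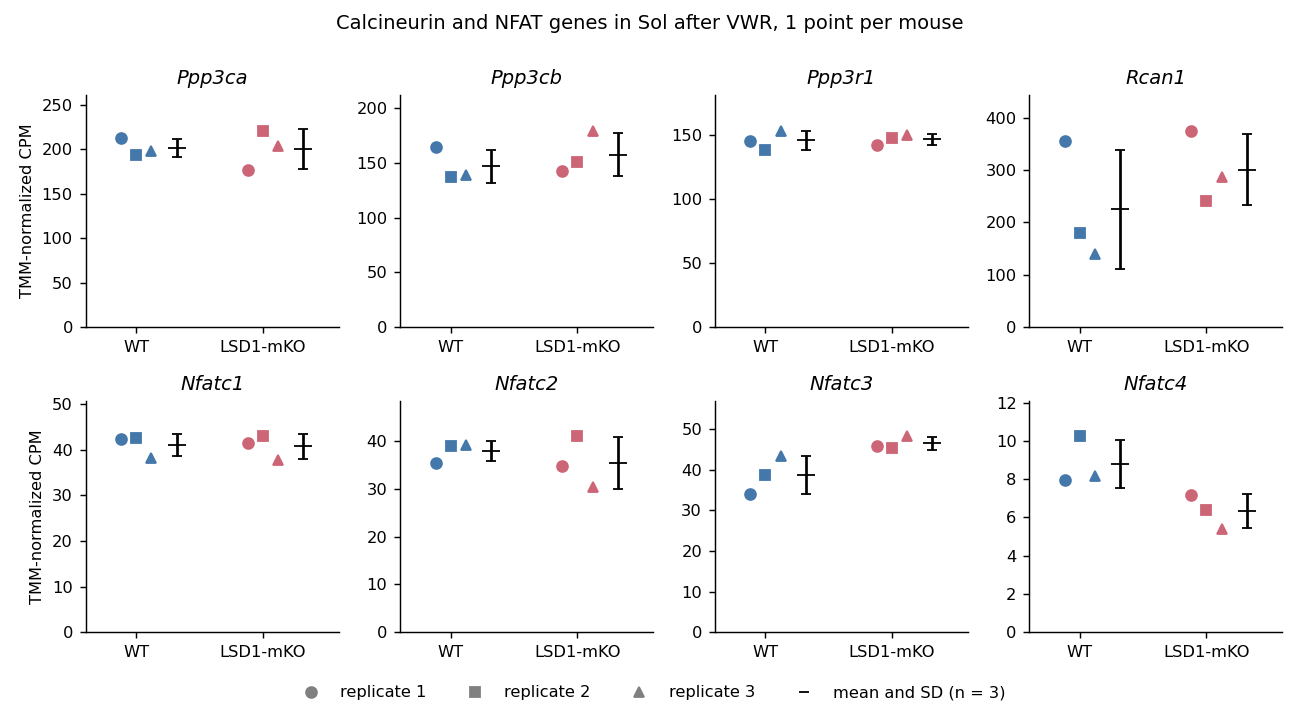
TMM-normalized CPM of each of the 8 genes in the 3 WT (blue) and 3 LSD1-mKO (red) mice, with the mean and SD beside each group. The groups do not overlap for Nfatc3 (34.0 to 43.4 in WT, 45.4 to 48.3 in LSD1-mKO) and for Nfatc4 (7.96 to 10.3 and 5.40 to 7.18), and in Rcan1 WT replicate 1 lies apart from the other WT mice.

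None of the 4 calcineurin-responsive NFAT genes passed the threshold by edgeR. Nfatc1 (chromosome 18, 80606205 to 80713071) encodes the member best known for repressing fast fiber genes and acting in slow fibers. It was at 42.3, 42.5 and 38.3 CPM in WT and at 41.4, 43.1 and 37.8 in LSD1-mKO, so the groups covered nearly the same values. Its log2 fold change was -0.01 with an interval from -0.22 to 0.20 (edgeR, adjusted p = 0.989).

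Nfatc2 (chromosome 2, 168476410 to 168601657), which encodes an NFAT protein also abundant in lymphocytes, was at 35.4, 39.0 and 39.3 CPM in WT. In LSD1-mKO it was at 34.9, 41.1 and 30.4, and the highest and lowest of the 6 mice were both LSD1-mKO. Its fitted log2 fold change was -0.10 with an interval from -0.37 to 0.18 (edgeR, adjusted p = 0.898).

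Nfatc3 (chromosome 8, 106058840 to 106130537) was at 34.0, 38.8 and 43.4 CPM in WT and at 45.7, 45.4 and 48.3 in LSD1-mKO. Every LSD1-mKO value exceeded every WT value, and the LSD1-mKO values lay closer together. The fitted log2 fold change was 0.26 with an interval from 0.02 to 0.50, which is 1.20-fold with limits of 1.01 and 1.42. The unadjusted p was 0.0367, and after adjustment it was 0.742 (edgeR; exact permutation test, 2-sided, p = 0.1). Without WT replicate 1, the lowest mouse, it was 0.18 (edgeR, unadjusted p = 0.0878), and with library size alone as the scale 0.23 (edgeR, unadjusted p = 0.112).

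Nfatc4 (chromosome 14, 55823144 to 55833943) had the fewest counts of the 8 genes, from 58 to 114 per library. It was at 7.96, 10.3 and 8.17 CPM in WT and at 7.18, 6.37 and 5.40 in LSD1-mKO, so that every LSD1-mKO value was below every WT value. The fitted log2 fold change was -0.48 with an interval from -0.89 to -0.07, which is 0.719 of WT with limits of 0.541 and 0.954. The unadjusted p was 0.0275, and after adjustment it was 0.726 (edgeR; exact permutation test, 2-sided, p = 0.1). Leaving out each mouse in turn gave log2 fold changes from -0.58 to -0.35.

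The makeup of the family was also compared, which uses the same counts as the values above. The sum of Nfatc1 to Nfatc4 was 51.1 ± 6.06 TPM in the WT and 51.1 ± 2.65 in the LSD1-mKO mice (SD, n = 3; exact permutation test, p = 1). Nfatc3 made up 26.1%, 27.3% and 31.31% of the sum in WT and 32.8%, 31.25% and 37.0% in LSD1-mKO, and LSD1-mKO replicate 2 lay just below WT replicate 3. Nfatc4 made up 9.67%, 11.4% and 9.36% in WT and 8.17%, 6.95% and 6.55% in LSD1-mKO, without overlap. The difference was -2.93 percentage points (exact permutation test, 2-sided, p = 0.1, adjusted p = 0.72 over 9 values, n = 3 each). Of the 9 values on subunit and family makeup, the Nfatc4 share was the only one whose groups did not overlap. With 1 mouse left out between 1 and 4 of them did not, the most without LSD1-mKO replicate 2. Leaving out a mouse cannot lower this number.

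**Figure D4:**
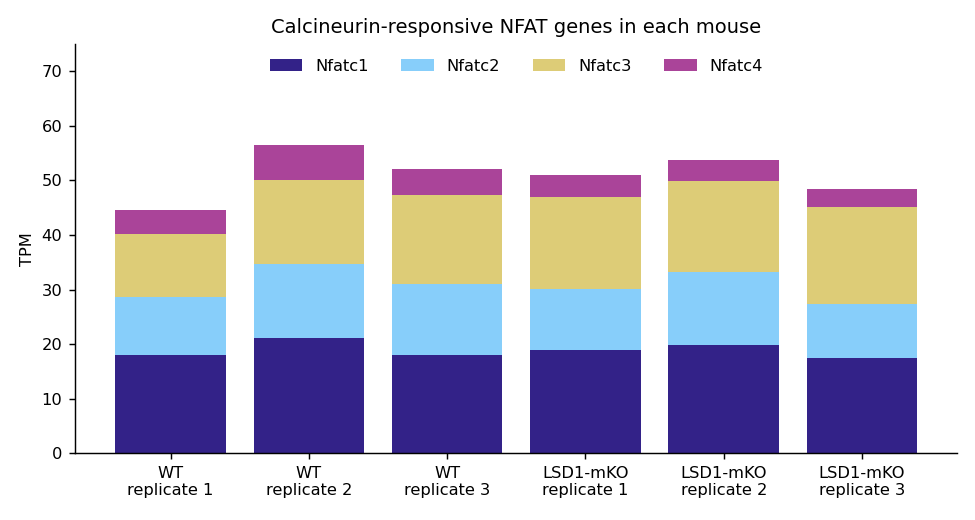
Stacked TPM of Nfatc1, Nfatc2, Nfatc3 and Nfatc4 in each mouse. The bars end between 44.6 and 56.6 TPM in WT and between 48.4 and 53.7 in LSD1-mKO, and the Nfatc4 segment is 4.31 to 6.47 TPM in WT and 3.17 to 4.17 in LSD1-mKO.

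NFAT genes are also expressed in cells other than muscle fibers, so markers of these cells are given beside them. The 6 immune markers summed to 67.8 to 213 CPM in WT and 68.8 to 129 in LSD1-mKO, and the 4 endothelial markers to 384 to 576 and 411 to 507. The sums of the 4 fibroblast markers, given above, ran from 1026 to 3016 and from 1089 to 1970 CPM. All 4 fibroblast and all 4 tested immune markers had a fitted difference below 0, with median log2 fold changes of -0.54 and -0.55. In the fibroblast list Col1a1 and Col1a2 were at -1.075 and -0.947, and Pdgfra and Dcn at -0.141 and -0.042. The endothelial markers had a median of -0.058, with 2 above 0 and 2 below. Nfatc4 was at -0.48. No marker of these lists was at 0 in every library; Cd3e and Cd79a were at most 0.54 CPM. Of the markers, 4 of 6 immune, 4 of 4 endothelial and 4 of 4 fibroblast genes were tested, and none passed the edgeR threshold or had an unadjusted p under 0.05 by edgeR. WT replicate 1 had the lowest fibroblast and immune sums of the 6 mice, an Nfatc4 value of 7.96 CPM and the lowest Nfatc3 value, 34.0 CPM. The fibroblast sums were 1026, 2251 and 3016 CPM in WT and 1970, 1094 and 1089 in LSD1-mKO. Nfatc4 was at 7.96, 10.3 and 8.17 CPM in WT and at 7.18, 6.37 and 5.40 in LSD1-mKO. WT replicate 1, with the lowest sum, ranked above all 3 LSD1-mKO mice for Nfatc4. Among the other mice the 2 orders were the same, except that WT replicate 2 and WT replicate 3 changed places. The part of these cells in the Nfatc3 and Nfatc4 values was not tested.

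The wider pathway was described by lists of genes named for their role. Of 79 genes found in the table, 77 were tested and none passed an adjusted p of 0.05 by edgeR, DESeq2 or limma voom. At an unadjusted p under 0.05 there were 6 by each of the 3 tools. Beside the 6.4% of all genes tested, the 6 of 77 found by edgeR are near the background. They were Rcan2, Gsk3b, Dyrk1b, Hdac4, Fos and Nr4a1. Of the 77, 37 had a fitted difference above 0, beside 45.2% of all genes tested. Their median log2 fold change was -0.01 against -0.02 over all genes. Groups did not overlap for 8 of the 77, with 3 higher and 5 lower in LSD1-mKO, against 6.63% and 6.1% of all genes.

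**Figure D5:**
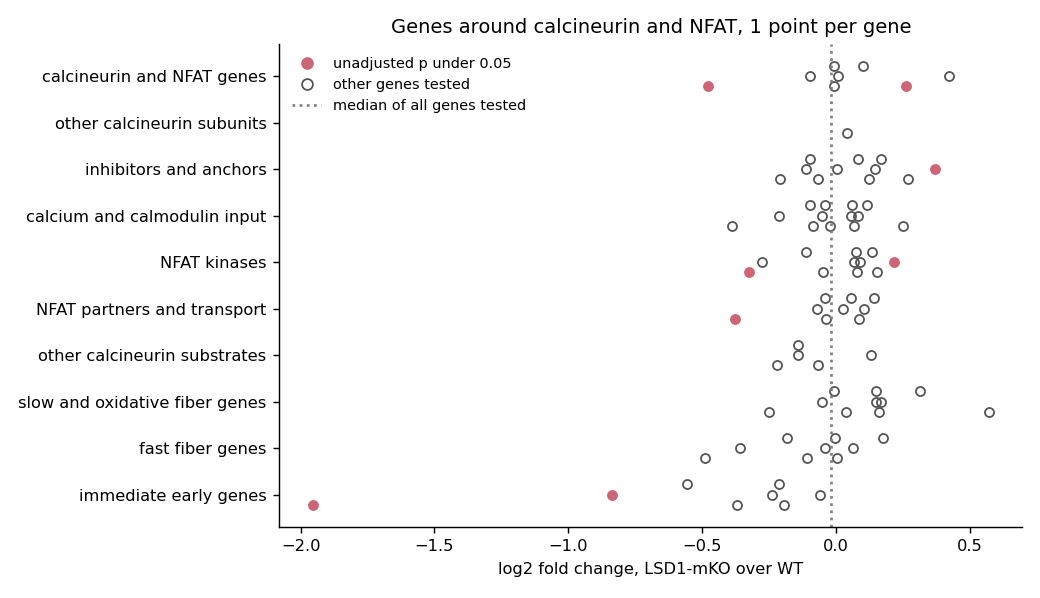
Log2 fold change of LSD1-mKO over WT for the 8 genes (top) and the genes of each list, 1 point per gene, filled red where the unadjusted edgeR p was under 0.05. The dotted line marks the median of all genes tested (-0.02); outside the immediate early genes all values lie between -0.49 and 0.57.

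Among inhibitors and anchors of calcineurin, 11 of 11 were tested, 7 above 0 and 4 below, with a median log2 fold change of 0.08. Rcan2, a relative of Rcan1 that also binds calcineurin, was at 223, 172 and 151 CPM in WT and at 205, 238 and 262 in LSD1-mKO. WT replicate 1 was again the highest WT mouse and lay within the LSD1-mKO range. The log2 fold change of Rcan2 was 0.37 (standard error 0.15, unadjusted p = 0.0418, edgeR, adjusted p = 0.766), and 0.54 without WT replicate 1 (edgeR, unadjusted p = 0.00231, adjusted p = 0.177). In that fit 14.4% of all genes had an unadjusted p under 0.05. Leaving out any other mouse gave Rcan2 values from 0.25 to 0.46, with unadjusted p from 0.0245 to 0.145 (edgeR). Chp1, which encodes a calcineurin-homologous protein that inhibits the enzyme, was at 121 to 132 CPM in WT and 135 to 140 in LSD1-mKO (edgeR, log2 fold change 0.15, adjusted p = 0.777). Rcan3 differed by 0.17 (edgeR, adjusted p = 0.870). Myoz2, which encodes the calcineurin-binding Z-disc protein calsarcin-1 of slow fibers, had the highest TPM of this list, a mean of 2440, and a log2 fold change of 0.08 (edgeR, adjusted p = 0.932).

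Genes that feed calcium and calmodulin into the pathway gave 6 of 13 above 0 and 7 below, with a median of -0.02 and 0 at an unadjusted p under 0.05 by edgeR. Camk2g, a subunit of the calmodulin-dependent kinase CaMKII, was at 132 to 135 CPM in WT and 105 to 130 in LSD1-mKO, without overlap (edgeR, log2 fold change -0.21, adjusted p = 0.766). Orai1 and Stim1, the pore and the sensor of store-operated calcium entry, differed by 0.25 and 0.12 (edgeR, adjusted p = 0.777 and 0.831), and the groups overlapped. Calm2, with the highest TPM of the list at a mean of 239, encodes calmodulin and differed by 0.07 (edgeR, adjusted p = 0.931).

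The kinases that rephosphorylate NFAT and return it to the cytoplasm went both ways. Of 11 tested, 7 were above 0 and 4 below, with a median of 0.07. Dyrk1b, a DYRK kinase abundant in muscle, was at 98.6, 83.3 and 90.1 CPM in WT and at 65.7, 78.5 and 72.9 in LSD1-mKO. The groups did not overlap (edgeR, log2 fold change -0.32, standard error 0.10, unadjusted p = 0.0121, adjusted p = 0.631). Gsk3b, the beta form of glycogen synthase kinase, was at 109.9, 104 and 106 CPM in WT and at 128, 113 and 132 in LSD1-mKO, again without overlap. Its log2 fold change was 0.22 (edgeR, standard error 0.087, unadjusted p = 0.0354, adjusted p = 0.731). Gsk3a, the gene of this list with the highest TPM, differed by 0.16 (edgeR, adjusted p = 0.781).

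Partners of NFAT and its transport factors gave 5 of 9 above 0 and 4 below, with a median of 0.03. Hdac4, a class IIa histone deacetylase that represses MEF2 factors, was at 28.0, 25.4 and 27.6 CPM in WT and at 17.2, 24.5 and 20.6 in LSD1-mKO. The groups did not overlap (edgeR, log2 fold change -0.38, standard error 0.14, unadjusted p = 0.0222, adjusted p = 0.701). Mef2c and Mef2d, which act with NFAT on slow fiber genes, differed by 0.14 and 0.11 (edgeR, adjusted p = 0.827 and 0.836). Other calcineurin substrates were tested for 5 of 5, with 1 above 0 and a median of -0.14. Crtc2, a coactivator of CREB, was at 23.2 to 28.0 CPM in WT and 19.6 to 22.4 in LSD1-mKO (edgeR, log2 fold change -0.22, adjusted p = 0.766). Crtc1 differed by -0.14 and Dnm1l, the mitochondrial fission GTPase, by 0.13 (edgeR, adjusted p = 0.838 and 0.832).

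Slow and oxidative fiber genes, among them targets linked to calcineurin and NFAT, were tested for 10 of 10. Of these 7 were above 0 and 3 below, with a median log2 fold change of 0.15, 0 passed the edgeR threshold and 0 had an unadjusted p under 0.05 by edgeR. Ppargc1a, the coactivator PGC-1α, was at 79.7, 48.2 and 59.0 CPM in WT and at 143, 58.3 and 75.5 in LSD1-mKO, and the groups overlapped (edgeR, log2 fold change 0.57, standard error 0.32, adjusted p = 0.777). Without LSD1-mKO replicate 1 the log2 fold change of Ppargc1a was 0.107 (edgeR, unadjusted p = 0.628). Leaving out any other mouse gave values from 0.416 to 0.821. LSD1-mKO replicate 1 was the highest of the 6 mice for both Ppargc1a and Rcan1, and WT replicate 1 was the highest WT mouse for both. Atp2a2, the slow calcium pump of the sarcoplasmic reticulum, differed by 0.31 and Myh2, the myosin of type IIA fibers, by -0.25 (edgeR, adjusted p = 0.777 and 0.864). Mb (myoglobin), with the highest TPM of the list, differed by -0.01. Fast fiber genes gave 3 of 9 above 0 and 6 below, with a median of -0.04 and 0 at an unadjusted p under 0.05 by edgeR. Pvalb (parvalbumin) differed by -0.49, Myh4, the myosin of type IIB fibers, by -0.36, and Mylpf by -0.18, each with a 95% interval that held 0, while Tnnt3, the highest in TPM, differed by 0.06.

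Immediate early genes were included because calcium signals of recent activity act on them too. The mice had been kept from the wheel before tissue was taken. Of 9 genes, 8 were tested (Fosb was too low). All 8 had a fitted difference below 0, with a median of -0.30 and 0 past the edgeR threshold. Among all genes tested 45.2% were above 0, and these 8 genes were measured in the same 6 mice. Fos was at 28.8, 6.03 and 24.6 CPM in WT and at 6.07, 2.68 and 6.61 in LSD1-mKO, so WT replicate 2 lay within the LSD1-mKO range (edgeR, log2 fold change -1.95, standard error 0.55, unadjusted p = 0.00695, adjusted p = 0.578). Nr4a1, an orphan nuclear receptor and also the list's highest gene by TPM, was at 92.2, 51.4 and 134 CPM in WT and at 43.1, 36.8 and 76.3 in LSD1-mKO (edgeR, log2 fold change -0.84, unadjusted p = 0.0493, adjusted p = 0.766). Atf3 differed by -0.56 (edgeR, adjusted p = 0.777). Summed over the list, these genes were at 189.0, 119.3 and 250.4 CPM in WT and at 127.0, 91.0 and 128.4 in LSD1-mKO, and the order of the mice was not that of Rcan1.

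For Rcan1, Ppp3ca and Nfatc1, the genes with the most similar pattern over the 6 mice were sought among 10211 genes with a mean of at least 5 CPM. These likenesses are descriptions, since the closest of so many genes is close by selection and all points share 6 libraries. For Rcan1 they were Med13, a Mediator subunit, Fam134b, a receptor for autophagy of the endoplasmic reticulum, and Gabarapl1, a protein of autophagosome membranes, with Pearson's r of 0.997, 0.987 and 0.986 on the log2 scale. Fam134b was at 664, 513 and 495 CPM in WT and at 703.5, 584 and 613 in LSD1-mKO. Gabarapl1 was at 187, 120.3 and 96.1 CPM in WT and at 176, 147 and 159 in LSD1-mKO, so that here too WT replicate 1 stood with LSD1-mKO replicate 1 above the rest. Med13 followed the same order within a narrow range, 69.9 to 78.6 CPM. For Ppp3ca they were Herc1, Lrrc61 and Eif1b (0.995, 0.986 and 0.982), and Nfatc1 was followed by Rbm19 and Synpo2l (0.971 and 0.970). None of the similar genes named here passed the edgeR threshold between genotypes.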

How the data were processed

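Poly(A) RNA of 6 Sol muscles was read as 75-base single-end reads, which the authors aligned to mm10 with STAR. The counting tool and annotation are not given in the sources used here. The authors deposited estimated counts per gene, not normalized, 1 column per library; columns were matched to samples by the numbers that head them and open the sample titles. A deposited DESeq2 table of the authors' own comparison (fold changes and p-values) was not used.

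Estimated counts were rounded and fitted with edgeR 4.0.16 (TMM, filterByExpr, quasi-likelihood test, R 4.3.3) over all 12828 genes tested, with Benjamini-Hochberg adjustment and a threshold of 0.05. Log2 fold changes are LSD1-mKO over WT; 95% intervals come from the fit's standard errors. DESeq2 1.42.0 and limma 3.58.1 (voom) were alternatives, as were other normalizations and filters, the replicate number as a block and each mouse left out (for single pathway genes and for overlap of groups, chosen after seeing the data). For TPM, gene length was that of the longest coding transcript (GENCODE vM21, GRCm38) or, as an alternative, the summed exons; 99.68% of the counts had a length. Single values were compared by exact permutation tests over the 10 splits of the mice, levels of 2 genes by sign flips over 64 patterns. The fits were tested on counts simulated from the means and dispersions fitted here, with changes larger than those of the 8 genes. Such a test does not show how often differences as small as theirs would be found. Replicates are separate mice, so the p-values between genotypes set a difference against the spread between these mice. Those of the sign flips concern 2 genes within each mouse. Similarity used log2(CPM + 0.5). From each list the 3 genes with the smallest p and the gene with the highest TPM are named, also the 8 genes, Kdm1a and the 3 genes most alike to Rcan1, Ppp3ca and Nfatc1, of which 1 is not reported here. The genes and lists were chosen with earlier results of these data known. Deviations of libraries with the same replicate number correlated at -0.364, -0.0968 and -0.146 and are not taken to pair the mice. Protein sequences were not used here.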

Additional observations from a re-analysis of the deposited data

How the results depend on the processing

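No setting brought any of the 8 genes past an adjusted p of 0.05. Neither DESeq2, limma voom, the library size alone, the block nor leaving out a mouse did so for the pathway genes. The fitted direction of Rcan1, Nfatc3 and Nfatc4 held in all 14 alternatives. For Nfatc3 and Nfatc4, leaving out a mouse could hardly change it, because their groups did not overlap. The direction of Ppp3cb held too, but at 0.000149 without LSD1-mKO replicate 3 (0.193 at most, without WT replicate 1). Differences near 0 changed sign: that of Ppp3ca was 0.00085 with DESeq2, 0.000723 with the DESeq2 size factors in edgeR and 0.00857 without a filter on low counts, that of Nfatc1 was 0.000583 with DESeq2 and 0.00825 without the filter, and that of Ppp3r1 was -0.0162 with the library size alone. Leaving out each mouse in turn, log2 fold changes ran from -0.0753 to 0.0781 for Ppp3ca, from -0.0277 to 0.0446 for Ppp3r1, from -0.0555 to 0.0438 for Nfatc1 and from -0.209 to 0.00329 for Nfatc2, above 0 for Nfatc2 only without LSD1-mKO replicate 3. Over the same fits LSD1-mKO minus WT ran from -2.61 to 16.7 TPM for the catalytic sum, from -0.0365 to 0.00824 for Ppp3r1 over that sum, from -2.14 to 0.85 percentage points for the Nfatc1 share and from -3.31 to 2.69 TPM for the NFAT sum. The number of genes whose groups did not overlap ran from 2 to 4, an alternative chosen after seeing the data. That of subunit and family values ran from 1 to 4 (2 without WT replicate 1, 3 without WT replicate 3, 2 without LSD1-mKO replicate 1, 4 without LSD1-mKO replicate 2). These use fewer samples, and neither number can fall when a mouse is left out. Unadjusted p values under 0.05 were found for 2 of the 8 genes with all mice (6.4% of all genes), for 2 without WT replicate 1 (14.4%) or WT replicate 3 (4.14%), for 1, Nfatc4, without LSD1-mKO replicate 1 (7.35%) or with the library size alone (6.05%), and for 0 with DESeq2 (4.5%) or without WT replicate 2 (5.68%), LSD1-mKO replicate 2 (5.59%) or LSD1-mKO replicate 3 (3.78%). The cause was not tested.

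With the replicate number as a block, 0 of the 8 genes passed an adjusted p of 0.05 and 3 had an unadjusted p under 0.05, beside 4.29% of all genes: Nfatc3, Nfatc4 and Rcan1, of which the last had a log2 fold change of 0.511 (edgeR, unadjusted p = 0.0358, adjusted p = 0.980). Nfatc4 had the fewest counts of the 8 genes, 58 to 114 per library.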
